A study of Mus musculus with 4 samples.

Results

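Immediate early genes and heat shock genes were followed through the cells of mouse hindlimb muscle. The 36 genes were chosen by symbol from the 32285 genes of the count matrices: 29 immediate early genes and 7 heat shock genes. All 36 were matched to 1 row each. The animals were males aged 2 months, and the tibialis anterior and gastrocnemius of 4 mice were pooled per genotype. Both genotypes carried S100GFPtg, a Schwann cell reporter with GFP under the S100B promoter, which also marks some other cells. The WT group carried the transgene alone and the Sod1KO group also lacked both copies of Sod1, which encodes the cytosolic copper-zinc superoxide dismutase. The muscles were minced and digested warm with dispase II, collagenase type II and hyaluronidase, and cells that excluded propidium iodide were sorted into GFP+ and GFP- fractions. The result was 4 libraries of droplet-based scRNA-Seq, 1 per genotype and fraction, and no sample of undissociated muscle was measured. The level of these genes in the tissue and their response to digestion and sorting therefore cannot be told apart.

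Immediate early genes are switched on within minutes of a stimulus without new protein synthesis. They encode mostly transcription factors of the Fos, Jun, Egr, Nr4a and Klf families, together with proteins that end the response, such as the phosphatase Dusp1 and the mRNA decay factor Zfp36. Heat shock genes encode chaperones that hold or refold unfolded protein, and their stress-inducible members are driven by heat shock factor 1. Both groups are known to respond when tissue is taken apart by warm enzymatic digestion, so in single-cell data they are widely read as a dissociation signature.

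The promoter windows below are shown because they hold short DNA motifs tied to induction by heat shock factor, cyclic AMP or serum. The sequences are from RefSeq on GRCm38.p6, written 5′ to 3′ on the gene's strand, and the capitals mark the motif. A window of 250 bases before to 50 bases after the start was held for 28 of the 36 genes. Motifs were searched only in the 250 bases before the start, in these and in all other windows. The palindromic heat shock element core, GAANNTTC, was searched on both strands. It lay in the windows of Hspa1a (chr17:34972213-34972300, minus strand), Hspa1b (chr17:34959295-34959382, minus strand) and Hspb1 (chr5:135887762-135887869, plus strand, 2 matches).
Hspa1a: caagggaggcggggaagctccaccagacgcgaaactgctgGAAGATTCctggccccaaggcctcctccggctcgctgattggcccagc
Hspa1b: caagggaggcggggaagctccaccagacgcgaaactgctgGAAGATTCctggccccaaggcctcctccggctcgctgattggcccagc
Hspb1: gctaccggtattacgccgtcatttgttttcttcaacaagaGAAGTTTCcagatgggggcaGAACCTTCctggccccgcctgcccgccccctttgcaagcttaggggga

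The core was held by 3 of 5 heat shock genes with a window and by 2 of 23 immediate early genes, Fosl2 and Jun, against 6.69% of all 32851 windows. A longer heat shock element, the same core followed by a further GAA repeat, was in 0 of the 28 windows and in 0.466% of all. The Hspa1a and Hspa1b windows share 247 of their 250 bases before the start. These neighbouring genes encode near-identical Hsp70 proteins, so how their reads were split between the 2 copies is uncertain. The cyclic AMP response element, TGACGTCA, lay in the windows of Dusp1 (chr17:26508568-26508655, minus strand) and Btg2 (chr1:134079274-134079361, minus strand) and in 1.55% of all windows.
Dusp1: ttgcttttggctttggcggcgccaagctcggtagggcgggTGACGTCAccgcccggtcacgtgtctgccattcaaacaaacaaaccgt
Btg2: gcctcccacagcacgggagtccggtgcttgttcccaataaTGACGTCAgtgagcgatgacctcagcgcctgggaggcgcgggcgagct

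A CArG box, the element bound by serum response factor, was found in Zfp36 (chr7:28379237-28379326, minus strand) and in 1.47% of all windows.
Zfp36: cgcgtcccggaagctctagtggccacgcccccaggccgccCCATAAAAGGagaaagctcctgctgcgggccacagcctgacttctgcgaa

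The AP-1 element TGANTCA, bound by Fos and Jun dimers, was in no member's window and in 6.75% of all windows. A match is a description of these letters. A missing match says only that they are not in the 250 bases before the start.

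After filtering, 17263 cells were used, between 1638 (WT GFP-) and 5925 (Sod1KO GFP+) per library, with median depths from 8019.5 (WT GFP-) to 14676 (Sod1KO GFP-) UMIs per cell. Clusters were built without the 36 genes and 53 related ones, and 24 of 37 clusters, with 71.2% of the cells, could be named from marker genes as 14 cell classes. Sod1 itself stood at 91.0 CPM (a gene's UMIs scaled to all UMIs of the class or library) in WT GFP+ cells and 98.3 CPM in Sod1KO GFP+ cells, and at 124 and 113 CPM in the GFP- libraries. Sod1 was thus not lower in the libraries labelled Sod1KO, and since a 3' tag can lie outside a deletion, this does not check the genotype. Each group is 1 library, so no test between genotypes was possible, and every interval given is a 95% interval for counting error only.

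Immediate early genes made up a large share of the RNA in every cell class. The 29 genes summed to 2.20% of all UMIs in WT GFP+ cells, 1.83% in Sod1KO GFP+ cells, 2.41% in WT GFP- cells and 1.94% in Sod1KO GFP- cells. The 7 heat shock genes summed to 0.183%, 0.164%, 0.332% and 0.251% in the same order. Fos, the partner of Jun in the AP-1 factor, gave 792716 UMIs over the 4 libraries.

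Among the named classes of the WT GFP+ library, the immediate early share was highest in the 38 satellite-like cells, the muscle stem cells, at 2.89%. Smooth muscle-like cells followed at 2.72% and myelinating Schwann-like cells at 2.55%. Of the unnamed clusters, one led by Olfr78 and Pcsk1 with markers of more than one vascular type stood higher still at 3.13%, and one led by Cxcl14 and Trf at 2.98%. The lowest shares were 1.04% in muscle fibre-like cells and 1.61% in nonmyelinating Schwann-like cells. The Sod1KO GFP+ library also had its highest shares in satellite-like cells (2.71%) and smooth muscle-like cells (2.61%), and its lowest in cycling-like cells (1.09%). The muscle fibre-like class is shallow, with a median of 1007 UMIs per cell in the WT GFP+ library, so no level of a single gene is given for it. It still enters the ranges and counts of single genes over classes.

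The heat shock share followed another order. It was highest in satellite-like cells (0.351%) and endothelial-like cells (0.342%) of the WT GFP+ library and lowest in myelinating Schwann-like cells (0.100%). In the Sod1KO GFP+ library endothelial-like cells were highest at 0.295% and myelinating Schwann-like cells again lowest at 0.101%. The GFP fractions differed in class makeup. Over all WT cells heat shock genes were lower in GFP+ than GFP- cells by 0.86 on the log2 scale, and within the 6 WT classes that could be compared the log2 ratio was -1.10 in muscle fibre-like, -0.31 in macrophage-like, -0.22 in fibro-adipogenic-like, -0.10 in endothelial-like, -0.02 in pericyte-like and 0.03 in smooth muscle-like cells. The last 2 intervals span 0.

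Myelinating Schwann-like cells thus combined one of the higher immediate early shares with the lowest heat shock share among the named classes of both GFP+ libraries.

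**Figure D1:**
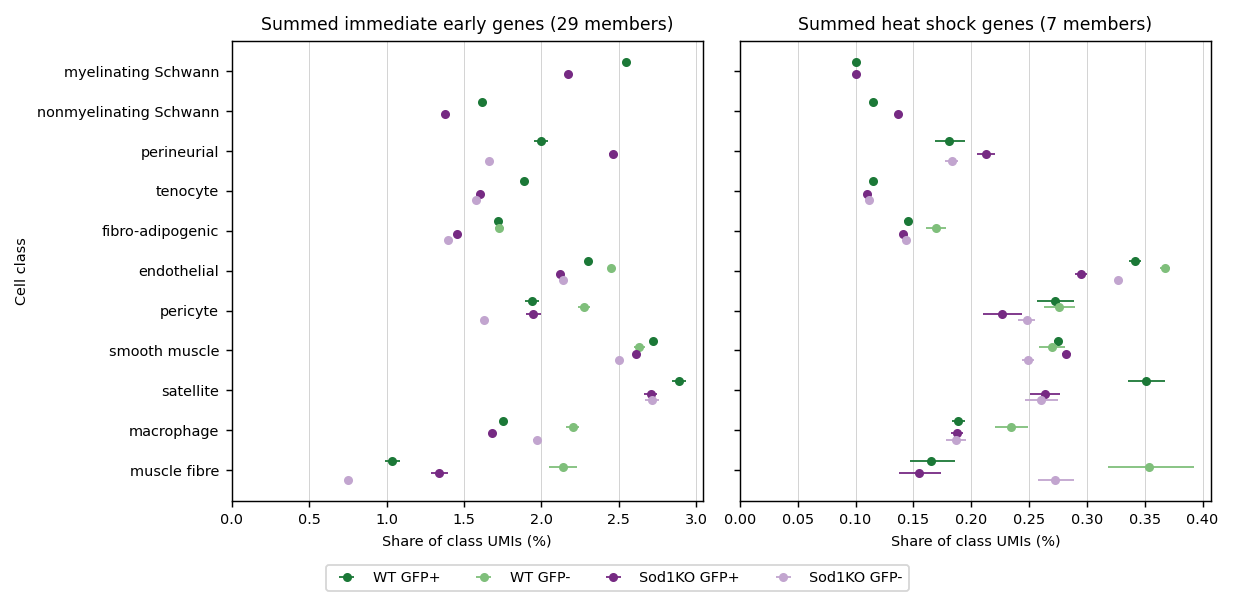
Share of a class's UMIs (percent) taken by the 29 immediate early genes (left) and the 7 heat shock genes (right), by cell class and library; bars give 95% Poisson intervals for counting error. Myelinating Schwann-like cells sit at 2.55% and 2.17% on the left and at 0.100% and 0.101% on the right.

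Fos had its highest level in myelinating Schwann-like cells. In WT GFP+ cells Fos was at 6890 CPM in myelinating Schwann-like cells, 4143 in tenocyte-like cells, 4014 in smooth muscle-like cells, 2003 in nonmyelinating Schwann-like cells and 1402 in macrophage-like cells. The Sod1KO GFP+ library gave Fos at 5399, 3030, 4422, 2382 and 1424 CPM in these classes. The highest class exceeded the lowest 4.91 times in WT. Fosb, a Fos paralog, was instead highest in satellite-like cells, at 2474 and 2503 CPM.

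The Jun family varied less between classes than Fos in the WT GFP+ library. In the Sod1KO GFP+ library the range was 3.84-fold for Junb and 3.79-fold for Fos. Jun was at 2787 CPM in satellite-like, 2521 in myelinating and 2480 in nonmyelinating Schwann-like cells of the WT GFP+ library. Its highest class exceeded its lowest, the shallow muscle fibre-like class, 3.52 times. Junb, a Jun paralog, was lowest in nonmyelinating Schwann-like cells in that library, at 898 CPM, against 1979 CPM in myelinating Schwann-like cells. Jund, the member of the family least tied to stimulation, was highest in satellite-like cells at 3833 CPM and next in nonmyelinating Schwann-like cells at 2224 CPM.

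The nuclear receptors Nr4a1 and Nr4a2, which act without a known ligand, separated the Schwann classes. Nr4a2 was at 1911 CPM in WT and 1531 CPM in Sod1KO myelinating Schwann-like cells of the GFP+ fraction. It was at 209 and 246 CPM in nonmyelinating Schwann-like cells and at 903 and 732 CPM in smooth muscle-like cells. With the cells thinned to 1000 UMIs each, Nr4a2 was seen in 72.9% of WT myelinating Schwann-like cells, 20.7% of nonmyelinating ones and 13.4% of endothelial-like cells, and without thinning in 95.8%, 81.9% and 68.2%. Nr4a1 was highest in smooth muscle-like cells (1293 CPM) and next in myelinating Schwann-like cells (1166 CPM) of the WT GFP+ library.

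Other transcription factors marked other cells. Klf2, a factor of vascular endothelium, was highest in endothelial-like cells at 1416 CPM in WT and 1134 CPM in Sod1KO GFP+ cells. Its relative Klf4 was highest in fibro-adipogenic-like cells, the interstitial progenitors of muscle, at 1366 and 764 CPM. Atf3, a factor induced by cell stress and nerve injury, was highest in smooth muscle-like cells at 1442 and 1463 CPM. Cebpb, a bZIP factor, reached 1919 CPM in WT smooth muscle-like cells against 38.6 CPM in myelinating Schwann-like cells, a 49.7-fold range.

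Genes that end the response were led by different cells. Dusp1, which dephosphorylates MAP kinases, was highest in macrophage-like cells at 943 and 959 CPM in the WT and Sod1KO GFP+ libraries, and was at 156 and 198 CPM in myelinating Schwann-like cells. Zfp36, which shortens the life of cytokine mRNAs, was at 1336 and 1117 CPM in macrophage-like cells. Socs3, an inhibitor of cytokine receptor signalling, was highest in perineurial-like cells, which ensheath nerve fascicles, at 1140 and 1380 CPM. Gadd45b, a stress-induced growth arrest gene, was at 1500 CPM in WT smooth muscle-like cells, 704 CPM in myelinating and 40.9 CPM in nonmyelinating Schwann-like cells.

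Heat shock genes split into widely and narrowly varying ones. Hspb1, a small chaperone of vascular and muscle cells, was at 1020 CPM in endothelial-like cells and 8.17 CPM in myelinating Schwann-like cells of the WT GFP+ library, a 125-fold range. Hspa1a, the inducible Hsp70, was highest in pericyte-like cells at 559 CPM in WT and 362 CPM in Sod1KO, against 27.8 and 38.1 CPM in myelinating Schwann-like cells. Hspa8, the constitutive Hsc70, varied only 3.08-fold, from 560 CPM in myelinating Schwann-like cells to 1725 CPM in satellite-like cells. Hsp90aa1, the inducible cytosolic Hsp90, was highest in satellite-like cells of the same library at 800 CPM.

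The class with the highest level was the same in both GFP+ libraries for 26 of the 36 genes. Satellite-like cells, 38 in WT and 58 in Sod1KO, were that class for 9 genes, among them Jun and Egr1. Endothelial-like, macrophage-like and smooth muscle-like cells were it for 4 each, and myelinating Schwann-like cells for 2, Fos and Nr4a2. For some of the 26 genes the counting intervals of the highest and next class overlapped in 1 or both libraries. Egr1 in Sod1KO, for example, was at 2899 CPM in satellite-like and 2749 CPM in perineurial-like cells.

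**Figure D2:**
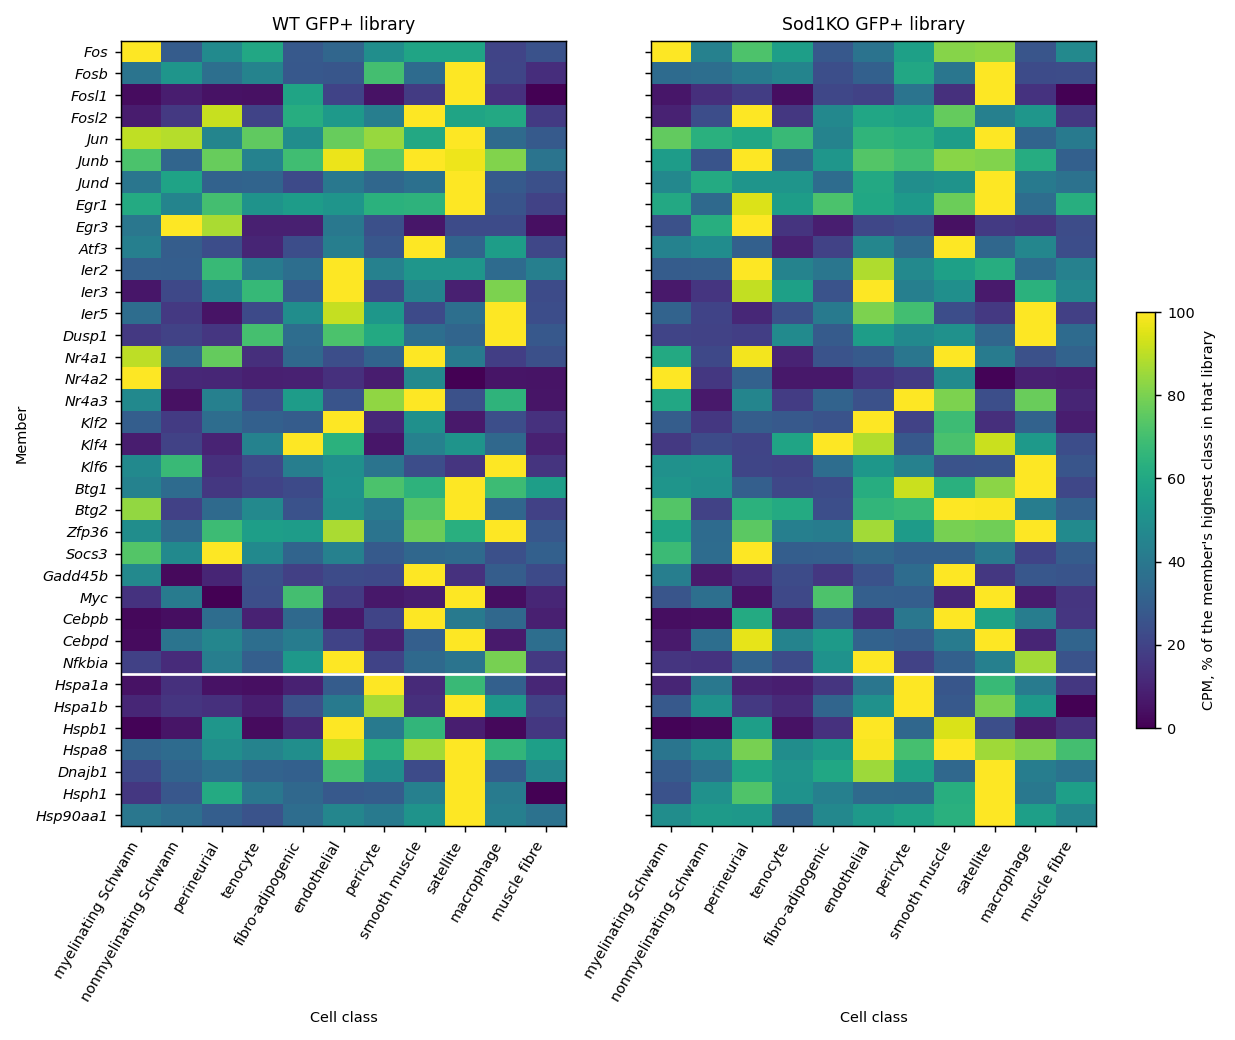
Level of each gene (rows) in each cell class (columns), as percent of that gene's highest class, in WT GFP+ and Sod1KO GFP+ cells. Fos and Nr4a2 peak in myelinating Schwann-like cells and Hspb1 in endothelial-like cells of both libraries.

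Within a class the response differed widely from cell to cell. With 1000 UMIs drawn per cell, WT myelinating Schwann-like cells held a median of 24 immediate early UMIs, with 3 at the 10th percentile and 43.9 at the 90th. In Sod1KO these were 21, 3 and 41. Nonmyelinating Schwann-like cells held medians of 13 in WT and 10 in Sod1KO, and WT smooth muscle-like cells 28.

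Fos was drawn in 87.4% of WT and 83.8% of Sod1KO myelinating Schwann-like cells at this depth, and in 92.8% and 92.7% without thinning (median 6234 and 6102 UMIs). No class lacks Fos: erythroid-like cells, a class of 41 cells in the Sod1KO GFP- library, had Fos in 56.1% after thinning and 97.6% without (median 26195 UMIs). The shares of 59.7% and 63.0% in nonmyelinating Schwann-like cells lie close to that level. A share of cells with a Fos UMI thus does not separate them from the erythroid-like class. That class comes from another library and passed the marker cut for 4 of 9 endothelial markers, with Klf2 at 894 CPM. It is no clean measure of free RNA, whose part was not tested. For Nr4a2 the erythroid-like share was 2.44%.

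**Figure D3:**
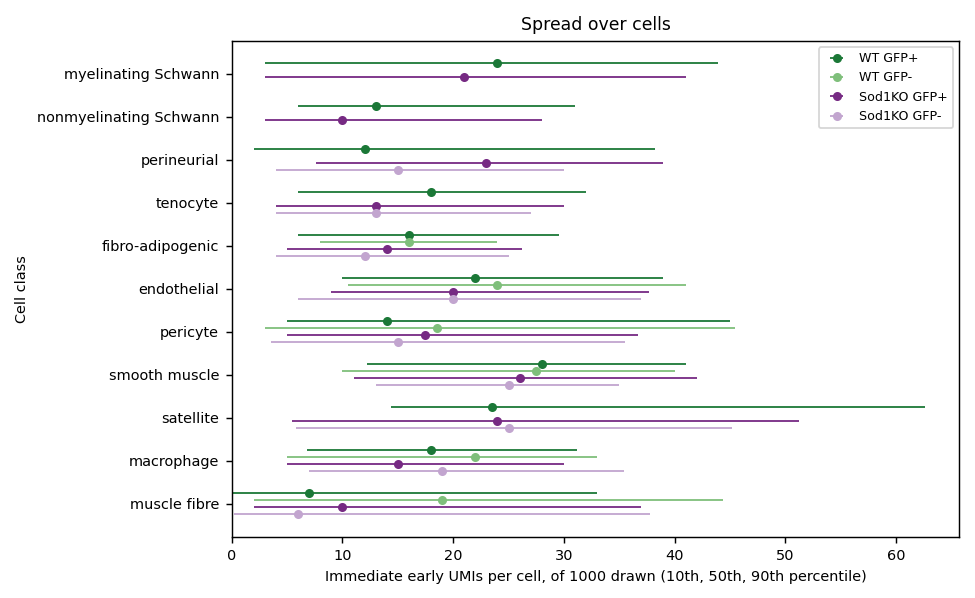
Immediate early UMIs per cell out of 1000 drawn, by class and library; points are medians and bars run from the 10th to the 90th percentile of cells. Myelinating Schwann-like cells range from 3 to 43.9 in WT.

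The 2 Schwann classes were compared within each library. Summed immediate early genes were higher in myelinating than in nonmyelinating Schwann-like cells by 0.66 on the log2 scale in WT and 0.65 in Sod1KO. For Fos the log2 difference was 1.78 in WT and 1.18 in Sod1KO. The difference depended on the cluster of nonmyelinating Schwann-like cells: in WT, 56 of these cells in cluster 7 were at 2.52%, close to the 2.55% of myelinating Schwann-like cells, and 325 in cluster 11 at 1.55%. In Sod1KO these 2 clusters, at 1.29% and 1.70%, lay below the 2.17% of myelinating Schwann-like cells. The class also holds cluster 30, with 12 WT and 87 Sod1KO cells, which is not described on its own.

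In myelinating Schwann-like cells of the GFP+ fraction (1073 WT and 655 Sod1KO cells), the immediate early share was 2.55% in WT and 2.17% in Sod1KO, a log2 ratio of Sod1KO over WT of -0.23 (interval -0.24 to -0.22). The heat shock share was 0.100% and 0.101%. A gene was counted as past the fold when its ratio exceeded 1.5 in either direction with at least 50 UMIs summed over the 2 libraries. Of 35 members so covered, 3 were higher and 2 lower in Sod1KO, where 3.78% and 4.41% of all 10310 genes were.

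Nr4a1 was lower in Sod1KO, at 638 against 1166 CPM (log2 -0.87, -0.93 to -0.81). Btg2, an antiproliferative gene, was at 725 against 1109 CPM (log2 -0.61). The members past the fold in the other direction were Cebpd, a bZIP factor, at 69.3 against 38.1 CPM (log2 0.86), Hspa1b at 41.2 against 23.0 CPM (log2 0.84) and Hsph1, an Hsp110 chaperone, at 0.60 on the log2 scale.

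The best known members differed less. Fos was at 5399 CPM in Sod1KO and 6890 CPM in WT (log2 -0.35, -0.37 to -0.33), and Egr1 at 1750 and 2149 CPM (log2 -0.30). Jun was at 2644 and 2521 CPM, Junb at 1836 and 1979, and Atf3 at 648 and 620. Dusp1, Klf2 and Socs3 gave log2 ratios of 0.34, -0.35 and 0.17. Zfp36 was at 653 and 656 CPM, Hspa8 at 540 and 560, and Hsp90aa1 at 312 and 318, each with an interval of the log2 ratio that spans 0.

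In nonmyelinating Schwann-like cells (393 WT and 882 Sod1KO cells) the immediate early share was 1.61% in WT and 1.38% in Sod1KO (log2 -0.23, -0.24 to -0.21), and the heat shock share 0.115% and 0.137% (log2 0.24, 0.20 to 0.28). Of 36 members, 6 were higher and 7 lower past the fold, against 8.99% and 13.6% of all genes. Different clusters held most of this class in the 2 genotypes: cluster 11 held 325 WT and 221 Sod1KO cells, and cluster 7 held 56 and 574. Cluster 30 held 12 and 87, with a median depth of 4609 UMIs per cell. The values are therefore given within clusters 11 and 7 as well. No ratio was formed in cluster 30, which had under 20 WT cells.

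The immediate early share within cluster 11 was 1.55% in WT and 1.70% in Sod1KO, a log2 ratio of 0.13. Within cluster 7 it was 2.52% and 1.29%, a log2 ratio of -0.96 (-0.99 to -0.93). These 2 clusters thus gave ratios of opposite sign, and the class value mixes them with cluster 30. In cluster 7, 21 of 36 members were lower past the fold and 1 was higher, against 14.4% and 16.8% of all genes. Cluster 11 had 5 higher and 5 lower of 35, against 2.7% and 7.67%. The median depth was 8002 UMIs in WT and 9672.5 in Sod1KO cells of cluster 7, and 15236 and 11018 in cluster 11. S100b was at 411 CPM in WT and 124 CPM in Sod1KO cells of cluster 7, and at 294 and 260 CPM in cluster 11. What these differences add to the ratios was not tested. Erythroid markers summed to 19.7 CPM in WT and 1618 CPM in Sod1KO over the class, and 1 Sod1KO cell held 8749 of those UMIs. Their part in these ratios was not tested.

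Fos was at 2003 CPM in WT and 2382 CPM in Sod1KO over the class (log2 0.25). In cluster 11 it was at 1771 and 2963 CPM (log2 0.74), and in cluster 7 at 5214 and 2244 CPM (log2 -1.22). Egr1 gave log2 -0.68 over the class, 0.05 in cluster 11 and -1.65 in cluster 7. Egr1 was thus lower within cluster 7 and not within cluster 11.

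Members with the same direction in the class and in both clusters included Nr4a1, with log2 ratios of -0.98, -0.66 in cluster 11 and -1.46 in cluster 7, and Hspa1b, with 1.22, 0.92 and 1.03. Hspa1a was at 76.5 CPM in WT and 145 CPM in Sod1KO over the class (log2 0.92), with 0.60 in cluster 11 and 0.21 in cluster 7, where the interval spans 0. Gadd45b was at 40.9 and 92.8 CPM over the class (log2 1.18) but gave -0.21 and -0.34 within the clusters. Atf3 gave 0.74 over the class, 0.10 in cluster 11 and -0.51 in cluster 7.

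Hspb1 was at 58.3 CPM in WT and 17.2 CPM in Sod1KO nonmyelinating Schwann-like cells (log2 -1.76). In WT, 6 of the 393 cells held 200 of the 378 Hspb1 UMIs, and in Sod1KO 9 of the 882 cells held 95 of 185. In the other cells Hspb1 was at 28.6 CPM in WT and 8.58 CPM in Sod1KO. The cells set apart were chosen by their own Hspb1 UMIs, to about the same share of these UMIs in each library. The ratio in the other cells is therefore no separate check. Endothelial markers summed to 4054 CPM in those 6 WT cells and 314 CPM in the other 387, and to 2210 and 43.3 CPM in the 9 and other 873 Sod1KO cells. Over the class, endothelial markers were at 465 CPM in WT and 98 CPM in Sod1KO. Their part in the Hspb1 difference was not tested.

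**Figure D4:**
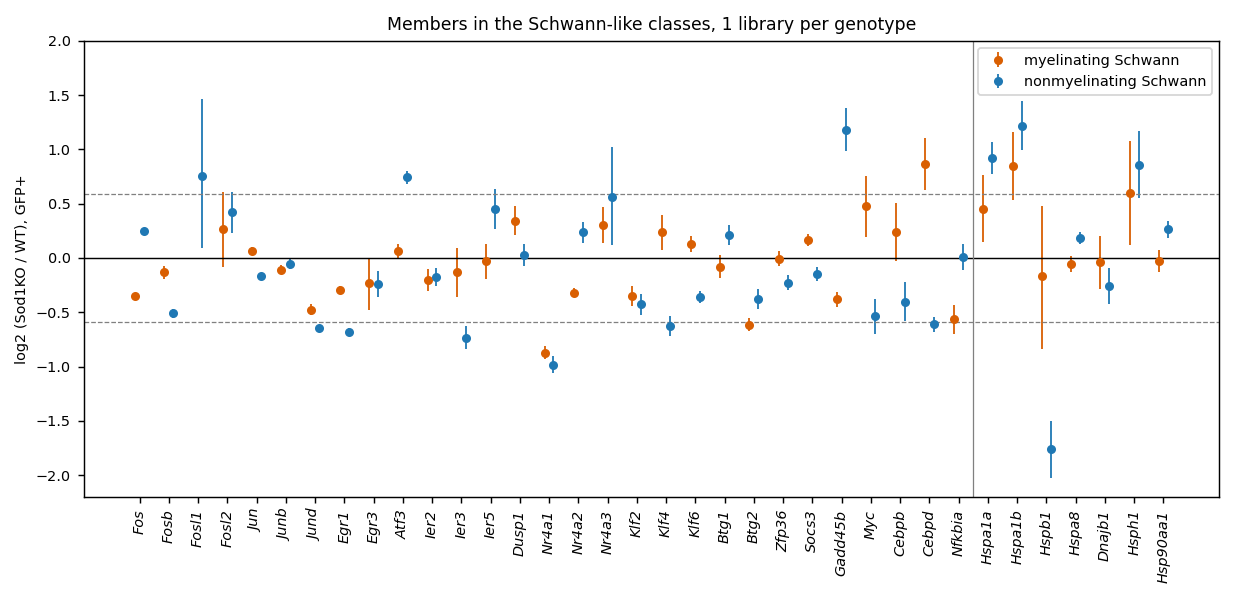
log2 ratio of Sod1KO over WT for each member in myelinating and nonmyelinating Schwann-like cells of the GFP+ fraction; bars are 95% counting intervals and dashed lines mark 1.5-fold. Nr4a1 lies below the lower dashed line in both classes, at -0.87 and -0.98.

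Across the named classes of the GFP+ fraction, the Schwann classes included, summed immediate early genes were lower in Sod1KO in 8 of 11 classes. Summed heat shock genes were lower in 7 of 11. The immediate early interval lay below 0 in 8 classes and above 0 in muscle fibre-like and perineurial-like cells. The heat shock interval lay below 0 in 4 classes and above 0 in nonmyelinating Schwann-like, perineurial-like and smooth muscle-like cells. The log2 ratio of the immediate early sum was -0.24 in fibro-adipogenic-like, -0.23 in tenocyte-like and -0.12 in endothelial-like cells. The tenocyte-like value mixes clusters of opposite sign, -0.40 in cluster 0 (475 WT and 1002 Sod1KO cells), 0.31 in cluster 15 (102 and 250) and 0.52 in cluster 29 (26 and 41). It was 0.30 in perineurial-like cells, of which there were 45 in WT and 94 in Sod1KO. In the GFP- fraction both sums were lower in Sod1KO in 6 of 6 classes, but with median-of-ratios scaling in 4 of 6 for immediate early and 5 of 6 for heat shock genes. The immediate early log2 ratio was -0.20 in endothelial-like, -0.31 in fibro-adipogenic-like and -0.48 in pericyte-like cells. The classes of a library share its digestion and sort, so they are not replicates of the genotype.

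Tenocyte-like cells had 1 member higher and 5 lower of 36, against 5.02% and 2.72% of all genes. Cluster 0 of this class had 0 higher and 10 lower of 36, against 5.45% and 2.57%, and cluster 15 had 4 higher and 0 lower of 35, against 3.78% and 3.88%. Nr4a2 was at 170 CPM in WT and 100 in Sod1KO over the class (log2 -0.76), with -0.77 in cluster 0 and -0.50 in cluster 15. Nr4a1 was at 175 and 104 CPM (log2 -0.74), with 177 and 88.5 CPM in cluster 0, and 159 and 149 CPM in cluster 15, where the interval of the ratio spans 0. Egr3, a paralog of Egr1, was at 13.4 and 30.6 CPM (log2 1.19), with 53.2 and 122 CPM in cluster 15 and 1.81 and 1.90 CPM in cluster 0. Fibro-adipogenic-like cells of the GFP+ fraction had 0 higher and 7 lower of 36, against 6.22% and 3.89%. Klf4 was among these, at 1366 CPM in WT and 764 in Sod1KO (log2 -0.84). In the GFP- fraction, 4 were higher and 8 lower of 36, against 15.6% and 10.4%. There the genotypes lay in different clusters: 26 of the 62 WT cells formed cluster 36, which held 0 Sod1KO cells, and 557 of the 629 Sod1KO cells lay in cluster 4 with 34 WT cells. Within cluster 4, 6 were higher and 6 lower of 35, against 16.8% and 9.95%. The same cluster in the GFP+ fraction had 0 higher and 8 lower of 35, against 5.75% and 3.74%. Over the GFP- class Klf2 was at 606 CPM in WT and 281 in Sod1KO (log2 -1.11), and Atf3 at 449 and 228 (log2 -0.98), with -0.65 and -1.03 within cluster 4.

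Endothelial-like cells had 0 of 36 members past the fold in the GFP+ fraction, against 6.31% of genes higher and 3.22% lower. The GFP- cells had 3 members higher and 0 lower, against 11.9% and 5.17%, and Egr1 was at 2638 CPM in WT and 1951 in Sod1KO (log2 -0.44). Pericyte-like cells of the GFP- fraction had 1 higher and 13 lower of 34, against 8.72% and 9.65%. The median mitochondrial share was 3.60% in WT and 5.81% in Sod1KO cells of this class, and the median depth 11642.5 and 8431.5 UMIs, whose part was not tested. There Nr4a1 was at 555 CPM in WT and 281 in Sod1KO (log2 -0.98). The GFP+ fraction of the class, 42 WT and 49 Sod1KO cells, had 4 higher and 1 lower of 32, against 10.1% and 11.0%. Hspa1a, highest in this class, was at 559 CPM in WT and 362 in Sod1KO (log2 -0.63), and endothelial markers stood at 956 and 307 CPM.

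Perineurial-like cells went the other way, with 8 members higher and 2 lower of 33, against 11.4% and 10.6%. Nr4a2 was at 206 CPM in WT and 477 in Sod1KO (log2 1.21), and Junb at 2117 and 3325. With classes taken from per-cell markers instead of clusters, the Nr4a2 ratio in perineurial-like cells turned to -0.61. Satellite-like cells had 3 higher and 5 lower of 34, against 7.15% and 11.0%, with Jund at 3833 CPM in WT and 2318 in Sod1KO (log2 -0.73). Smooth muscle-like cells had 0 higher and 1 lower of 36, against 4.85% and 2.75%. That gene was Cebpb, at 1919 and 1258 CPM (log2 -0.61). The GFP- cells of this class had 0 higher and 4 lower of 34, against 9.77% and 8.38%, with Hspa1a at 111 CPM in WT and 63.4 in Sod1KO (log2 -0.81).

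Macrophage-like cells of the GFP+ fraction had 2 higher and 0 lower of 35, against 6.84% and 5.22%. Hspb1 was at 21.2 CPM in WT and 59.0 in Sod1KO (log2 1.48). In the GFP- fraction, with 23 WT cells, 2 were higher and 3 lower of 32, against 8.08% and 16.9%, and Hspb1 was at 192 and 48.9 CPM (log2 -1.97). Endothelial markers stood at 245 and 355 CPM in the GFP+ and at 2006 and 263 CPM in the GFP- fraction, and their part was not tested. Hspb1 thus pointed in opposite directions in the 2 fractions.

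The shallow muscle fibre-like class had 5 higher and 3 lower of 25 in the GFP+ fraction, against 10.9% and 13.8%, and 1 higher and 22 lower of 27 in the GFP- fraction, against 32.7% and 33.9%. Its summed immediate early share was 2.14% in WT and 0.753% in Sod1KO GFP- cells. Over all cells, which also vary in class makeup, 0 members were higher and 4 lower of 36 in the GFP+ fraction, against 8.15% and 6.81%. Of the GFP- cells' 36 members 1 was higher and 3 lower, against 20.4% and 6.78%.

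By gene, Jund was lower in Sod1KO in 10 of 11 GFP+ classes and Nr4a1 in 8 of 11, 4 of them past the fold. Fos was lower in 5 of 11, with log2 ratios from -0.45 to 0.55, and Jun in 2 of 11. The 11 classes include the shallow muscle fibre-like class.

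**Figure D5:**
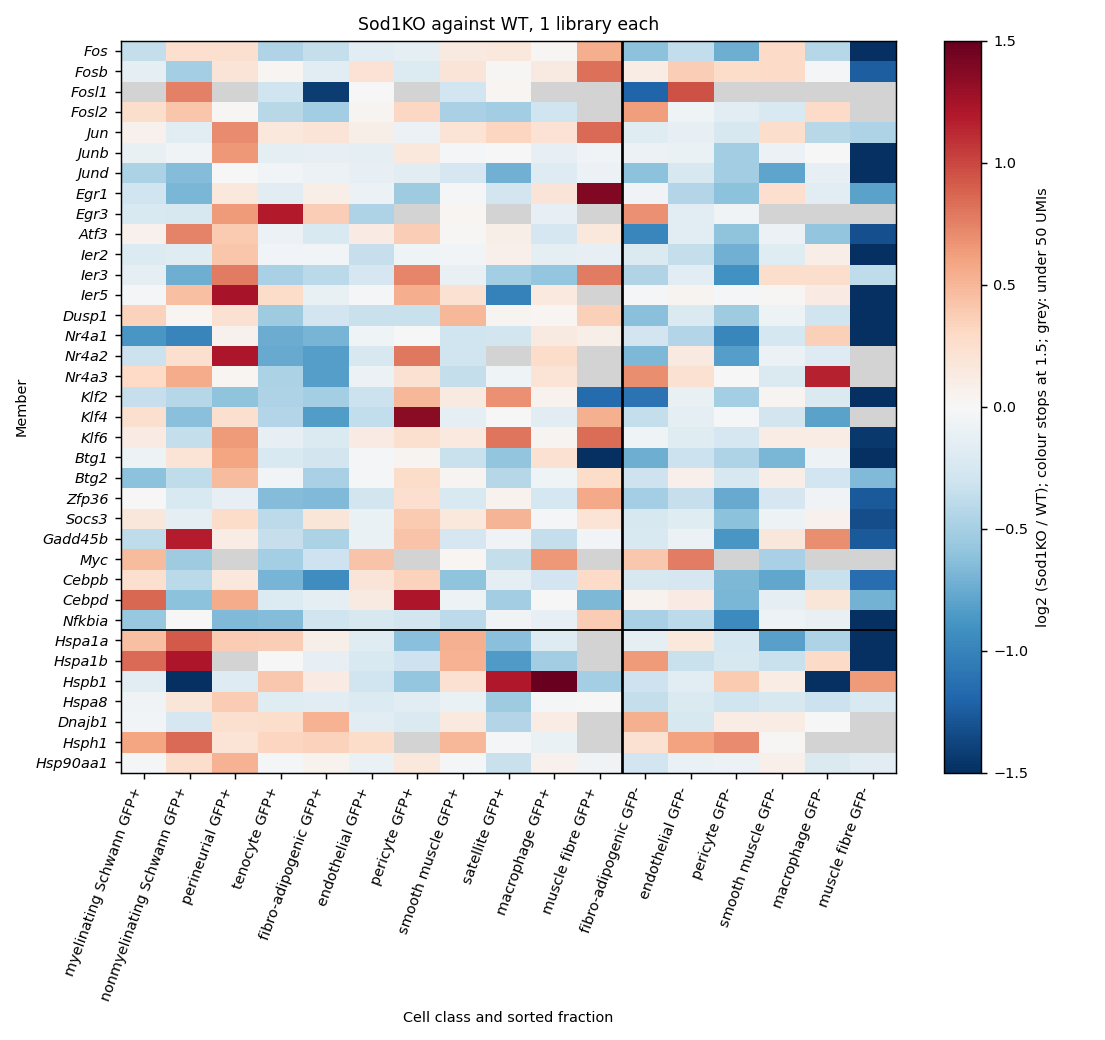
log2 ratio of Sod1KO over WT for each member (rows) in each class and fraction (columns); grey cells had under 50 UMIs and the colour scale stops at 1.5. Jund is lower in 10 of 11 GFP+ classes.

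Related genes from lists outside the 36 were counted in the same way. Of 30 other early response genes, 25 were covered in myelinating Schwann-like cells, with 1 higher and 4 lower in Sod1KO, against 3.78% and 4.41% of all genes. Sgk1, a kinase induced by serum and glucocorticoid, was lower by log2 -1.29 and Ccn2, a matricellular gene, higher by 0.69. In nonmyelinating Schwann-like cells 2 were higher and 12 lower of 26, against 8.99% and 13.6%. Within cluster 7 there were 0 higher and 15 lower of 23, against 16.8% and 14.4%, and within cluster 11 0 higher and 7 lower of 25, against 2.7% and 7.67%. In perineurial-like cells 7 were higher and 1 lower of 22, against 11.4% and 10.6%, among them the chemokine gene Ccl2 (log2 4.70) and the cytokine gene Il6 (log2 3.40). Of 14 other chaperones and heat shock factor targets, 0 of 13 covered in myelinating Schwann-like cells were past the fold in either direction.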

How the data were processed

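The deposited files hold raw UMI counts per gene and cell barcode, made by the authors with Cell Ranger 7.1.0 per the file headers, on mm10 per the submitters' processing notes. They precede the ambient RNA removal, doublet removal and integration that the authors describe. Here, cells with over 200 genes and under 10% mitochondrial UMIs were kept, and doublets were removed at 0.8% per 1000 barcodes by a score over 50 neighbours. Libraries had 2052 to 7267 barcodes and 21959719 to 105954116 UMIs, and pairs of libraries shared 1 to 13 barcodes. Cells were clustered on 2000 variable genes, 30 principal components and 20 neighbours (Leiden, resolution 1), without 89 genes, the 36 members included. Classes were named from 21 marker lists by a rule set after the clusters were seen: at least 3 markers above 20 CPM and above 2 times the other clusters. At least 50% of the list had to pass, with no second list at 60% or more. Cycling markers and the 2 endothelial lists were exempt from the second-list limit. The 10 leading genes of a cluster could not favour another list, and in shallow clusters they had to include a marker. Names are rebuilt and may differ from the study's. The members and lists were chosen with earlier results of these data known.

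Counts were summed per class and library, in classes of at least 20 cells, and given as CPM with exact Poisson intervals. Ratios have conditional binomial and shares exact Clopper-Pearson intervals, at 95%. PCR duplicates are removed by UMIs, and intervals cover counting error only. All members are covered by counts and ranges. Values are given for Fos, Jun, Junb, Egr1, Atf3, Dusp1, Zfp36, Klf2, Nr4a1, Socs3, Hspa1a, Hspa1b, Hspa8 and Hsp90aa1. They are also given for some, not all, of the highest and lowest ratios per class among members with at least 50 UMIs. The calculation of ratios was tested on simulated data. Clustering used leidenalg 0.10.2 and scikit-learn 1.9.0, and statistics used scipy 1.17.1 under Python 3.11.15. Alternatives were a 2-fold threshold, a stricter cell filter, no doublet removal, members kept in clustering, per-cell CPM, a denominator without the members, median-of-ratios scaling, subtraction of 5% ambient RNA and classes from per-cell markers.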

Additional observations from a re-analysis of the deposited data

Results flagged for a closer look

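A member was picked out here when its log2 ratio of Sod1KO over WT passed 1.5-fold in opposite directions in the 2 fractions of a class, or in the 2 Schwann classes. Both counting intervals also had to exclude 0, and the shallow muscle fibre-like class was left out. With 1 library per group none of these differences was tested. Cebpd in pericyte-like cells was at 1.21 in GFP+ and -0.68 in GFP- cells. Ier3, an early response survival gene, in pericyte-like cells was at 0.73 and -0.91, but its GFP+ value was -0.17 with classes from per-cell markers. Nr4a2 in these cells was at 0.79 and -0.83, but its GFP- value was 0.79 with a stricter cell filter and 0.25 with per-cell classes. Hspb1 in macrophage-like cells was at 1.48 in GFP+ and -1.97 in GFP- cells. Nr4a3 in fibro-adipogenic-like cells was at -0.83 in GFP+ and 0.70 in GFP- cells. The GFP- cells of the genotypes lay in different clusters, and within cluster 4, which both share, Nr4a3 was at -0.61 and 0.67, the latter with 34 WT cells. Cebpd was at 0.86 in myelinating and -0.61 in nonmyelinating Schwann-like cells.

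Several of these rest on few cells: the GFP+ pericyte-like class had 42 WT and 49 Sod1KO cells and the GFP- macrophage-like class 23 and 79. Endothelial markers also differed in these classes, at 956 CPM in WT and 307 CPM in Sod1KO GFP+ and 1126 and 986 CPM in GFP- pericyte-like cells. In macrophage-like cells they were at 245 and 355 CPM in the GFP+ and 2006 and 263 CPM in the GFP- fraction. Their part was not tested.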

How the results depend on the processing

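No paired analysis was possible because each group is 1 library and no test was run. Of 284 values of the 34 summed levels by class under the alternatives, 261 had the same sign and 23 did not. Only 1 of the 34 was past 1.5-fold, and its 5 values had the same sign. Of 4583 values of single members, 4282 had the same sign and 5 past 1.5-fold reversed. The log2 difference between the Schwann classes in summed immediate early genes (0.66 in WT, 0.65 in Sod1KO) was 0.70 and 0.54 with a stricter cell filter, 0.61 and 0.60 without doublet removal, 0.58 and 0.68 as a mean of per-cell CPM, 0.72 and 0.72 with a reduced denominator, 0.70 and 0.69 with ambient RNA subtracted, and 0.70 and 0.59 with classes from per-cell markers. At a 2-fold threshold, myelinating Schwann-like cells had 0 members lower and 0 higher, and nonmyelinating ones 1 lower and 2 higher. Myelinating members lower numbered 1 with per-cell CPM and 1 with the reduced denominator, and members higher 5 with the stricter filter and 5 with per-cell classes. Nonmyelinating members lower numbered 4 with the stricter filter and 3 with per-cell classes, and higher 10 with per-cell classes. The share of all genes past the fold was computed only for the main setting at 1.5-fold. The counts under other settings therefore show only how the calls moved.

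Over all classes, 33 lower calls in the GFP+ fraction became 5 at 2-fold, and 32 higher calls became 10. Without doublet removal 10 classes were compared instead of 11, with 21 higher calls. These totals also lack a share of all genes beside them. In the GFP- fraction, 50 lower calls in 6 classes became 22 at 2-fold and 29 with median-of-ratios scaling. Other settings compared a different number of classes. Members kept in clustering gave 28 calls in 5 classes, the stricter filter 15 in 3, and per-cell classes 79 in 8. A setting chosen after seeing the data left out the muscle fibre-like class, erythroid-like cells and cells under 1000 UMIs. It gave 28 calls in 5 classes. The muscle fibre-like class alone had 22 of the 50 lower calls. The 11 higher calls of the GFP- fraction became 1 at 2-fold and 6 with the stricter filter. That filter left 3 GFP- classes to compare, lower in 3 for both sums. With per-cell classes, Ier3 in GFP+ pericyte-like cells gave -0.17, and in perineurial-like cells Nr4a2 gave -0.61 and Btg1 -0.032. Nr4a2 in GFP- pericyte-like cells gave 0.79 with the stricter filter and 0.25 with per-cell classes. The cause of these changes was not tested.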
